A study of Mus musculus with 6 samples.

Results

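Beta-catenin and the cytoplasmic complex that destroys it were followed in whole mouse embryos from diabetic and non-diabetic pregnancies, at 10 genes of the 18194 that were named by a single symbol on the array. These were Ctnnb1, which encodes beta-catenin, the scaffold genes Apc, Apc2, Axin1 and Axin2, and the kinase genes Gsk3a, Gsk3b, Csnk1a1, Csnk1d and Csnk1e. Every probe set with only 1 of these symbols was taken, which gave 35 of the 45101 probe sets of the array. A probe set is a group of short probes directed at 1 stretch of a transcript, and 9 of the 10 genes had several. The comparison asked which of these transcripts differed between diabetes-exposed and control embryos, and whether separate probe sets of 1 gene gave the same answer.

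All embryos were of the FVB inbred strain, 10.5 days of gestation, and morphologically normal. Diabetes-exposed embryos came from FVB dams that at 7 to 9 weeks of age had received 2 intraperitoneal doses of 100 mg per kg streptozotocin, a drug toxic to the pancreatic cells that make insulin, and whose blood glucose exceeded 250 mg per dl. Control embryos came from non-diabetic pregnancies of the same strain and carried no other treatment in the labels. Each array, an Affymetrix mouse expression array, received a pool of RNA from 3 embryos of different pregnancies, and each group had 3 pools and thus 9 embryos. The induced diabetes and the drug itself cannot be told apart in this design.

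Beta-catenin links cadherins to the cytoskeleton at cell junctions and, when it accumulates, enters the nucleus and activates genes together with TCF/LEF factors. In cells without a Wnt signal, axin and APC proteins hold it in a complex in which casein kinase 1 and glycogen synthase kinase 3 phosphorylate it, and a ubiquitin ligase then marks it for degradation. Wnt signals received by Frizzled and LRP receptors act through Dishevelled to disable the complex. The pathway is known for its roles in patterning the body axis, neural tube, limbs and heart of the embryo. Since beta-catenin is controlled mostly as a protein, transcript signals are not a measure of its amount or activity.

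Of the 35 probe sets, 32 were bright enough to be tested, and 16 of these (50%) fell in diabetes-exposed pools at an adjusted p under 0.05 with limma, against 21.8% of all 30025 tested probe sets. Only 1 rose, where 14.4% of all tested probe sets did, and 15 were not called in either direction. Every exposed pool lay below every control pool at 16 of the 32 (50%), against 28.0% of all tested probe sets. These were the same 16 that fell. Decreases of at least 2-fold were found for 15 of the 32 (46.9%), against 11.0% of all. The median log2 fold change (exposed over control) was -0.62 over the 32 and -0.05 over all tested probe sets. The genes were chosen with earlier results of these data known, so these shares are no independent test of an excess over the array. The paper lists 1 probe set each of Ctnnb1, Apc, Apc2, Axin1, Gsk3b and Csnk1e as lower in exposed embryos. Of the 16 that fell, 3 were bright enough to be tested through their control signals alone. Median centring of the arrays kept 16 lower but gave 5 higher. At the brightest probe set of each gene, Apc2, Axin1, Axin2 and Csnk1e were lower, Csnk1a1 was higher and Ctnnb1, Apc, Gsk3a, Gsk3b and Csnk1d were not called. For Csnk1e the brightest, 1417176_at, was so through its control signals. In exposed pools 1417175_at was brighter (geometric means 1537 and 1062), and it was not called.

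**Figure D1:**
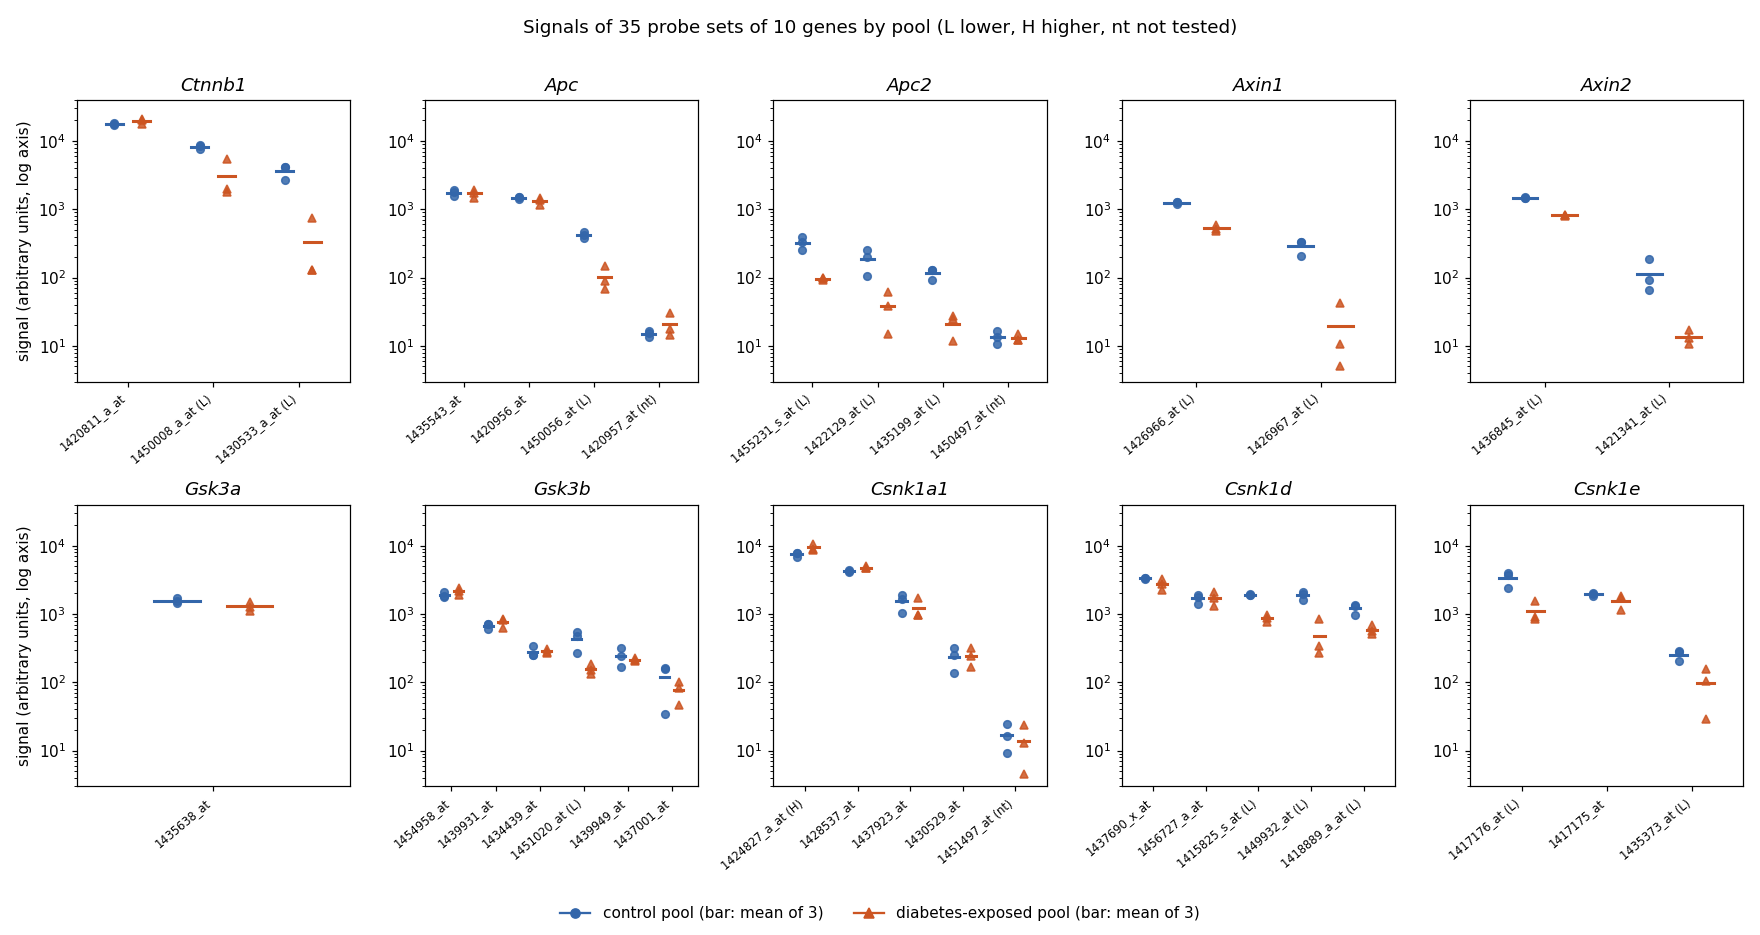
Signal on a logarithmic axis (arbitrary units) of each of the 35 probe sets, with 1 panel per gene, 1 blue circle per control pool, 1 orange triangle per diabetes-exposed pool and a bar at each mean of 3. Within Ctnnb1, Apc, Gsk3b, Csnk1d and Csnk1e some probe sets separate the groups and others overlap, whereas the tested probe sets of Apc2, Axin1 and Axin2 all lie lower in exposed pools.

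A measure of the labelling reaction moved with the groups and belongs beside every value below. Poly-A spikes are bacterial transcripts added to the RNA, read at their middle and at their 3' end. Their 3' signal was 2.10, 2.07 and 2.52 times the middle signal in control pools 1, 2 and 3 and 6.56, 3.47 and 7.00 times in exposed pools 1, 2 and 3. The groups did not overlap (exact permutation test, two-sided, p = 0.1, the smallest that 3 against 3 arrays allow). The 3' to 5' signal ratio of beta-actin, a transcript of the embryos themselves, was 1.71, 1.76 and 2.19 in control pools and 10.1, 3.09 and 10.3 in exposed pools (exact permutation test, two-sided, p = 0.1). Exposed pool 2 was thus nearest to the controls by both ratios. Within the groups the spike ratio varied mainly through this pool (3.47 against 6.56 and 7.00). Every value given below with the spike covariate therefore leans mostly on exposed pool 2, whether a decrease shrinks, turns or grows. When the spike ratio was added to the fit as a covariate, 0 of the 32 probe sets passed in either direction with limma, while 10 were lower and 2 higher at an unadjusted p under 0.05. Over all tested probe sets 1.11% were lower in that fit. Since the ratio did not overlap between groups, exposure and spike ratio can hardly be told apart in it. The standard error rose from 0.11 to 0.19 at Axin1 1426966_at and from 0.20 to 0.44 at Apc2 1455231_s_at. At Ctnnb1 1430533_a_at it fell from 0.59 to 0.22. A call lost in this fit is therefore not a measure of how much of a decrease belongs to labelling. The direction stayed negative for 14 of the 16 that had fallen, and their median log2 fold change went from -1.71 to -0.78, with adjusted p from 0.059 to 0.83.

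Transcripts that mark other tissues also moved with the groups. Prl8a2, a prolactin family gene of the decidua, gave 6522.1, 5698.9 and 6412.2 in control pools and 39.0, 39.3 and 30.7 in exposed pools. It led the summed signal of the 8 measured decidua and placenta markers in control pools, and that sum ranged from 5801 to 6622 in controls and from 94.6 to 125 in exposed pools. Only Prl8a2 was bright enough to be tested. The untested Prl6a1 was between 49.9 and 68.8 in control and between 4.5 and 12.1 in exposed pools. The defining placental markers Tpbpa, Ctsq and Ctsj were between 1.8 and 20.1 in all pools. Prl3c1 (0.9 to 2.6 in control and 1.8 to 4.6 in exposed pools), Ceacam11 (1 to 8 and 11.9 to 16.6) and Ascl2 (2.7 to 26.4 and 7.6 to 33.2) were not lower in exposed pools. Of the 7 yolk sac endoderm markers 6 were tested, and of these Afp and Ttr rose and 0 fell. The counts were the same at an unadjusted p under 0.05 (limma, 0 lower and 2 higher). The summed signal of the 7 was 4027 to 4644 in controls and 6176 to 9987 in exposed pools. Afp made up most of it, at 3032.4 to 3453.6 in controls and 4859.5 to 7688.5 in exposed pools. Apoa1, Apob, Amn and Cubn were not called (log2 fold changes 0.47, 0.68, 0.01 and -0.09, limma adjusted p from 0.21 to 0.98). All 12 whole-embryo markers, of neural tissue, heart, blood, somites and mesenchyme, were bright enough to be tested, and 4 fell and 4 rose. The heart markers Tnnt2, Myl7 and Nppa and the somite marker Myf5 rose, with log2 fold changes of 0.70, 1.16, 0.60 and 0.85. The neural markers Sox2 and Pax6, the somite marker Tcf15 and the mesenchyme marker Prrx1 fell, with log2 fold changes of -0.61, -0.76, -1.53 and -0.41. The neural marker Tubb3 was not called (-0.22, adjusted p = 0.17). The part of these tissues in the results below was not tested. In pools of whole embryos, fewer cells of a type and less RNA per cell cannot be told apart.

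Ctnnb1 was represented by 3 probe sets that did not respond alike. Probe set 1420811_a_at gave 18184.3, 17297.8 and 17523.3 in control pools and 19997.1, 17591.4 and 20941.3 in exposed pools. The groups overlapped, and the log2 fold change of 0.14 was not called (SE 0.085, 95% interval -0.05 to 0.33, adjusted p = 0.24). Its sign depended on the scaling of the arrays, since it was -0.16 after quantile normalization (adjusted p = 0.016), -0.28 after cyclic loess (adjusted p = 0.0039) and 0.46 after median centring (adjusted p = 0.026). Without exposed pool 2 it was 0.21, with an adjusted p of 0.014.

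The other probe sets of Ctnnb1 fell. Signals at 1450008_a_at were 8630.8, 8396.3 and 7768.1 in control pools against 2012.2, 5378.4 and 1796.2 in exposed pools. All exposed pools were below all controls, and exposed pool 2 was the nearest to them (log2 fold change -1.62, SE 0.35, limma adjusted p = 0.0078). At 1430533_a_at the signals were 4134.5, 4121.5 and 2671.6 in control pools and 127.9, 738.9 and 131.3 in exposed pools. The mean went from 3643 ± 841 to 333 ± 352 (SD, n = 3 pools each), a log2 fold change of -3.95 (SE 0.59, limma adjusted p = 0.0018), and exposed pool 2 again stood highest of its group. Under the spike covariate the log2 fold changes of these probe sets were 0.28 and -0.66 (adjusted p = 0.54 and 0.20).

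**Figure D2:**
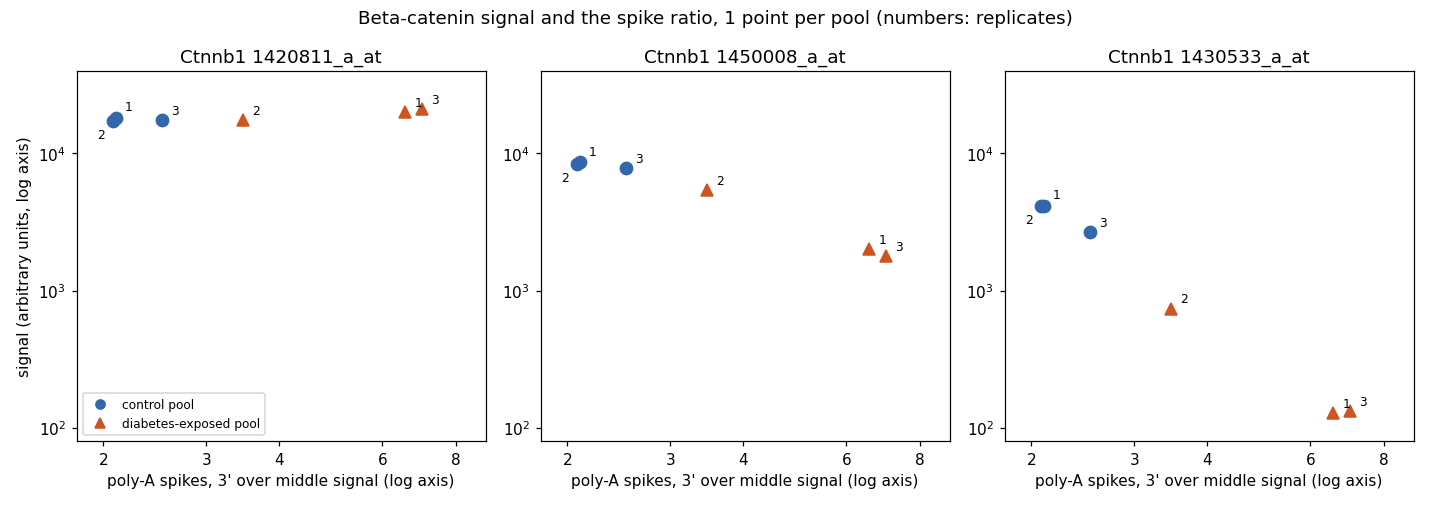
Signal of the 3 Ctnnb1 probe sets (vertical logarithmic axes, arbitrary units) against the ratio of 3' to middle signal of the poly-A spikes (horizontal logarithmic axes), 1 point per pool, circles for controls and triangles for diabetes-exposed pools, with replicate numbers. Exposed pool 2, at a spike ratio of 3.47, lies between the controls and the other exposed pools at 1450008_a_at and 1430533_a_at, while signals at 1420811_a_at stay between 17297.8 and 20941.3 in all pools.

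Differences between probe sets of 1 gene were tested on their ratio within each array, which does not change when a whole array is multiplied by a constant. Pairs were not run after quantile or cyclic loess normalization, which can move such ratios. For Ctnnb1 the response of 1420811_a_at exceeded that of 1430533_a_at by 4.09 on the log2 scale, or 17.0-fold (SE 0.77, adjusted p = 0.027), and 1430533_a_at responded lower than 1450008_a_at by a log2 difference of -2.33 (adjusted p = 0.020). The difference of 1.76 between 1420811_a_at and 1450008_a_at was not called (adjusted p = 0.054). Over the 10 genes, 12 of 45 pairs (26.7%) differed, in 7 genes, against 20.6% of the 19082 pairs of all genes. Among the 12 are the only pairs of Axin1 and Axin2, which include 1426967_at and 1421341_at. Both of these had an exposed geometric mean of 13.3, under the signal of 26.7 at which the brightness filter was set, so that these 2 genes add little to the count. In 9 of the 12, 1 probe set had fallen and its partner had not, a make-up that choosing pairs by an unlike response itself favours. The same share was not counted for the pairs of all genes, so it says nothing particular about these genes. Without control pool 1 or 2 or exposed pool 1 or 3, limma called 0 of these pairs (17, 18, 18 and 20 at an unadjusted p under 0.05), but those fits called only 0, 0, 0 and 231 of the 19082 pairs of all genes and so say nothing about the members. Without exposed pool 2, 21 member pairs and 34.1% of all pairs were called. The fit with the spike covariate likewise called 0 pairs of any gene (limma, with 2 of the member pairs at an unadjusted p under 0.05).

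Among the scaffold genes, Apc, which encodes the large tumour suppressor protein that binds beta-catenin and axin, again gave unlike answers. Probe set 1435543_at was at 1587.8, 1904.8 and 1766.9 in control pools and 1943.7, 1450.2 and 1742.0 in exposed pools, with overlapping groups and a log2 fold change of -0.04 (95% interval -0.33 to 0.25, adjusted p = 0.83). Likewise 1420956_at overlapped between groups, with a log2 fold change of -0.15 (adjusted p = 0.28). At 1450056_at, in contrast, signals of 414.6, 469.1 and 384.9 stood against 89.7, 150.4 and 67.8, a clear separation with exposed pool 2 the highest of its group (log2 fold change -2.12, SE 0.28, limma adjusted p = 0.0011, and -0.85 with the spike covariate, adjusted p = 0.31). This response differed from that at 1435543_at by 2.08 and from that at 1420956_at by 1.96 on the log2 scale (adjusted p = 0.027 for both pairs). The remaining probe set, 1420957_at, lay between 13.7 and 30.1 in all pools and was too dim to be tested.

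Apc2, the APC relative expressed mainly in the nervous system, fell at all 3 tested probe sets. Controls gave 335.0, 391.7 and 249.7 at 1455231_s_at, where exposed pools gave 98.1, 93.6 and 99.4. The exposed values were close together and all below the lowest control (log2 fold change -1.72, SE 0.20, limma adjusted p = 0.00077). At 1422129_at signals were 203.4, 254.3 and 103.9 against 38.6, 15.0 and 61.6, and at 1435199_at 130.0, 128.1 and 92.9 against 11.8, 24.4 and 27.3. Neither overlapped, with log2 fold changes of -2.41 and -2.54 (limma adjusted p = 0.0091 and 0.0025). The exposed signals at 1435199_at averaged 19.9 (geometric mean), under the 26.7 at which the brightness filter was set, so that the size of this decrease is uncertain. At 1422129_at they averaged 32.9, near that limit, and exposed pool 2 was under it, so that its size is uncertain too. Exposed pool 2 was not the highest of its group at any of the 3 Apc2 probe sets, and the values with the spike covariate were -1.63, -4.16 and -1.94 (adjusted p = 0.13, 0.088 and 0.37). Among the neural markers above, Sox2 and Pax6 fell as well, while Tubb3 was not called (log2 fold change -0.22, limma adjusted p = 0.17). The part of neural tissue in the Apc2 values was not tested. The last Apc2 probe set, 1450497_at, was between 10.6 and 16.6 in all pools and was not tested.

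Axin1, the scaffold on which the complex is assembled, fell at both of its probe sets. Signals at 1426966_at were 1285.0, 1287.5 and 1196.5 in control pools and 483.6, 586.4 and 519.8 in exposed pools. The mean fell from 1256 ± 51.8 to 530 ± 52.1 (SD, n = 3 pools each), well apart from the spread between pools (log2 fold change -1.25, SE 0.11, limma adjusted p = 0.00027). With the spike covariate it was -0.95 with an adjusted p of 0.059, the smallest among the 16 probe sets that fell. At 1426967_at signals of 332.1, 332.9 and 206.1 stood against 5.1, 42.8 and 10.7, so that the log2 fold change of -4.42 (SE 0.69, limma adjusted p = 0.0020) rests on exposed signals with a geometric mean of 13.3, under the filter limit. With that limit on its size, its response was lower than that of 1426966_at by a log2 difference of 3.17 (adjusted p = 0.035), and with the spike covariate it was -1.17 (adjusted p = 0.58).

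Axin2, a scaffold that is itself switched on by beta-catenin and serves as a readout of the pathway, also fell at both probe sets. The brighter, 1436845_at, had 1505.7, 1444.0 and 1444.3 in control pools and 820.0, 830.8 and 801.1 in exposed pools. Pools of a group were close together, at means of 1465 ± 35.5 and 817 ± 15.0 (SD, n = 3 pools each), and the decrease was 1.79-fold (log2 fold change -0.84, SE 0.087, limma adjusted p = 0.00050). It was -0.79 with the spike covariate (adjusted p = 0.073). The dimmer, 1421341_at, had 185.2, 92.7 and 65.5 against 17.1, 10.7 and 12.9, without overlap (log2 fold change -2.97, SE 0.49, limma adjusted p = 0.0025, and -3.18 with the spike covariate, adjusted p = 0.23). Exposed signals at 1421341_at had a geometric mean of 13.3, also under the filter limit, so that its fold change and the difference of -2.12 between the pair on the log2 scale (adjusted p = 0.028) are uncertain in size.

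Of the kinase genes, those for glycogen synthase kinase 3, which phosphorylates beta-catenin for recognition by the ubiquitin ligase, were mostly not called. The single Gsk3a probe set, 1435638_at, gave 1717.4, 1555.0 and 1449.7 in control pools and 1516.6, 1274.0 and 1089.9 in exposed pools. The groups overlapped and it was not called (log2 fold change -0.29, 95% interval -0.59 to 0.01, adjusted p = 0.12), although without exposed pool 1 it was -0.41 with an adjusted p of 0.048. Gsk3b had 6 tested probe sets, of which 5 were not called, with log2 fold changes from -0.40 to 0.18 and overlapping groups. Of these, 1439931_at was higher after quantile normalization (0.39, adjusted p = 0.048) and median centring (0.49, adjusted p = 0.018), and 1454958_at after median centring (0.49, adjusted p = 0.019). Its 1437001_at was at -0.40 with all pools and at -1.13 without control pool 3 (adjusted p = 0.046). At 1451020_at Gsk3b fell, from 483.0, 547.4 and 271.7 in control pools to 131.3, 185.7 and 149.5 in exposed pools. The log2 fold change was -1.43 (SE 0.27, limma adjusted p = 0.0043), or -0.63 with the spike covariate (adjusted p = 0.61), and it differed from the responses of 4 of the other Gsk3b probe sets by 1.30 to 1.61 on the log2 scale (adjusted p from 0.021 to 0.039).

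Casein kinase 1 primes beta-catenin for glycogen synthase kinase 3, and its alpha form, encoded by Csnk1a1, was the only gene of the 10 with a probe set that rose on the deposited scale. After quantile normalization the single higher probe set was instead Gsk3b 1439931_at, and after median centring the 5 higher ones were of Ctnnb1, Gsk3b and Csnk1a1. Signals at 1424827_a_at were 7772.0, 6826.3 and 7786.9 in control pools and 9046.7, 8781.5 and 10501.6 in exposed pools. The groups did not overlap (log2 fold change 0.34, SE 0.097, limma adjusted p = 0.025, and 0.098 with the spike covariate, adjusted p = 0.83). The call was lost without control pool 1 or 2 or exposed pool 1 or 3 (adjusted p = 0.060, 0.11, 0.055 and 0.082), and after quantile or cyclic loess normalization the log2 fold change was 0.02 and 0.05. At 1428537_at exposed pools of 4714.8, 4652.7 and 5000.7 were also above controls of 4096.6, 4218.4 and 4384.3, but the log2 fold change of 0.18 was not called (adjusted p = 0.10). The other tested probe sets, 1437923_at and 1430529_at, overlapped between groups, with log2 fold changes of -0.32 and 0.07 (adjusted p = 0.40 and 0.89), and 1451497_at, between 4.6 and 24.1, was not tested.

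Csnk1d, which encodes the delta form, fell at 3 of 5 probe sets. At 1415825_s_at the signals were 1946.3, 1903.9 and 1866.3 in control pools and 868.7, 980.9 and 767.4 in exposed pools (log2 fold change -1.13, SE 0.11, limma adjusted p = 0.00036). At 1449932_at they were 2128.8, 1931.2 and 1607.9 against 344.2, 837.2 and 264.7 (log2 fold change -2.15, SE 0.36, limma adjusted p = 0.0027), and at 1418889_a_at 1313.4, 1334.6 and 972.4 against 512.0, 692.7 and 564.1 (log2 fold change -1.03, SE 0.16, limma adjusted p = 0.0021). None of the 3 overlapped, and exposed pool 2 was highest of its group in each. With the spike covariate they were at -0.78, -0.20 and -0.44 (adjusted p = 0.078, 0.74 and 0.47). By contrast 1437690_x_at and 1456727_a_at overlapped between groups, with log2 fold changes of -0.29 and -0.02 (adjusted p = 0.11 and 0.95), and 1 of the 10 pairs of Csnk1d probe sets differed, 1415825_s_at from 1456727_a_at by -1.12 on the log2 scale (adjusted p = 0.0499).

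Csnk1e, for the epsilon form, had 3 probe sets. Control pools gave 3707.0, 3952.3 and 2402.4 at 1417176_at and exposed pools 916.4, 1544.9 and 845.3, a separation with a log2 fold change of -1.63 (SE 0.25, limma adjusted p = 0.0020, and -0.39 with the spike covariate, adjusted p = 0.53). At 1417175_at the values were 2052.9, 1991.2 and 1835.2 against 1734.3, 1854.5 and 1128.5, which overlapped (log2 fold change -0.35, adjusted p = 0.15), and the responses of the pair differed by 1.28 on the log2 scale (adjusted p = 0.031). At 1435373_at signals of 273.3, 283.5 and 205.6 stood against 102.8, 158.3 and 28.6 without overlap (log2 fold change -1.70, SE 0.54, limma adjusted p = 0.038). This last call did not survive the loss of any control pool or of exposed pool 1 (adjusted p from 0.061 to 0.11), and with the spike covariate the log2 fold change was 0.51 (adjusted p = 0.83).

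**Figure D3:**
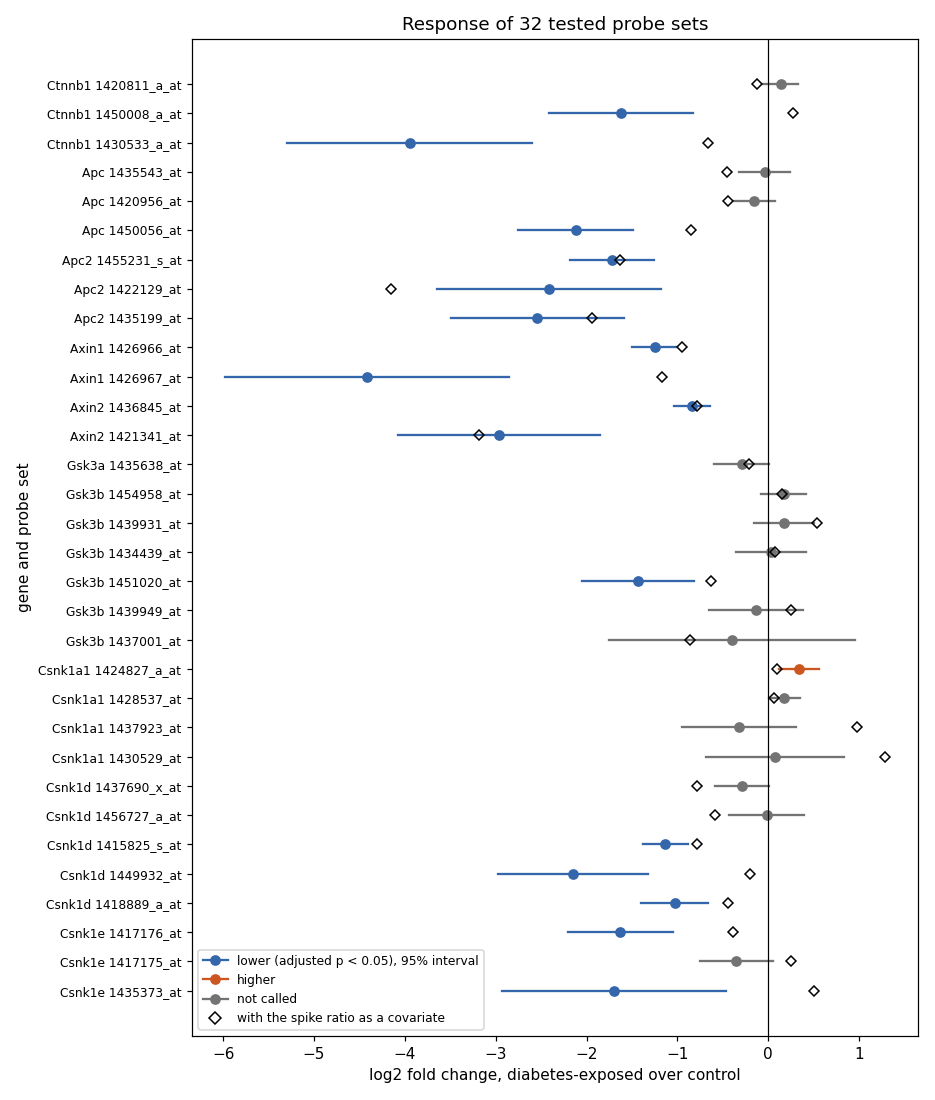
Log2 fold change (exposed over control, horizontal axis) of the 32 tested probe sets by gene, with filled circles and 95% intervals from limma in blue where lower, orange where higher and grey where not called, and open diamonds for the value with the spike ratio as a covariate. Diamonds stay near the circles at Apc2 1455231_s_at and Axin2 1436845_at and move to or past 0 at Ctnnb1 1450008_a_at and Csnk1e 1435373_at.

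Across the complex, 9 genes had more than 1 tested probe set, and 5 of them held both a probe set that fell and one that did not, as did 41.2% of the 6515 such genes on the array. Apc2, Axin1 and Axin2 fell at all tested probe sets, and Csnk1a1 at none. However, 3 of the 16 that fell, Apc2 1435199_at, Axin1 1426967_at and Axin2 1421341_at, passed the brightness filter through their control signals alone, and without them Axin1 and Axin2 each rest on 1 probe set and Apc2 on 2. Apc2 1422129_at was itself near the limit of the filter in exposed pools. Exposed pool 2 was the highest exposed pool at 12 of the 16 probe sets that fell (75%), as it was at 64.4% of all 6550 that fell, and at 5 of the 16 that did not fall. When each gene was read as the mean of its tested probe sets, Ctnnb1 was at -1.81, Apc at -0.77 and Csnk1d at -0.92 on the log2 scale (limma adjusted p = 0.0016, 0.00074 and 0.00042), so that these genes, not called at their brightest probe set, were then lower. The same reading gave -0.29 for Gsk3a, -0.27 for Gsk3b and 0.07 for Csnk1a1 (adjusted p = 0.10, 0.29 and 0.74).

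Further genes of the pathway were read at their brightest tested probe set, at which 19.9% of all 13956 genes fell and 17.6% rose, and the median log2 fold change was -0.00025. Of 62 tested regulators and partners, 18 fell and 8 rose, and their median was -0.18. This split depended on the scaling, with 8 lower and 17 higher after median centring, which moved the median of all genes to 0.32, 20 lower and 3 higher after quantile normalization, which moved it to 0.14, and 23 lower and 3 higher after cyclic loess. With the spike covariate 2 were lower and 0 higher (limma, 16 and 3 at an unadjusted p under 0.05), against 241 lower and 11 higher of all 13956 genes.

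On the receptor side, 7 of 17 genes fell and 0 rose (limma, 9 and 0 at an unadjusted p under 0.05), at a median of -0.46 on the log2 scale. Csnk1g2, a membrane-bound casein kinase 1 that phosphorylates LRP receptors, had 1714 ± 148 in control and 462 ± 82.4 in exposed pools (SD, n = 3 pools each), a log2 fold change of -1.91 (limma adjusted p = 0.00019). Dvl2, a Dishevelled gene, fell from 993 ± 91.5 to 327 ± 46.2 (log2 fold change -1.61, limma adjusted p = 0.00027), and Dact1, whose product binds Dishevelled, from 1577 ± 147 to 712 ± 17.5 (log2 fold change -1.14, limma adjusted p = 0.00028). Dvl1 fell by less (log2 fold change -0.51, adjusted p = 0.025). With the spike covariate Csnk1g2 was at -1.43 and Dvl1 at -1.13 (adjusted p = 0.038 and 0.037), the only regulators called in that fit. For Dvl1 this was a larger decrease than the -0.51 without the covariate. Exposed pool 2, with the lowest spike ratio of its group, gave the lowest Dvl1 signal. The larger Dvl1 value with the covariate leans mostly on that 1 pool. Without exposed pool 2 and without the covariate, Dvl1 was at -0.34. The co-receptor genes Lrp5 and Lrp6 were not called (log2 fold changes -0.47 and -0.25, adjusted p = 0.16 and 0.075). Lrp6 was lower at the mean of its probe sets (-0.51, adjusted p = 0.0096), and Lrp5 in the fit without a variance trend (adjusted p = 0.0486).

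Genes for the ubiquitin ligase and for turnover of the complex went both ways, with 3 of 14 lower, 4 higher and a median of 0.05 on the log2 scale. Of the tankyrases, which destabilize axin, Tnks fell (log2 fold change -0.74, adjusted p = 0.0090) and Tnks2 rose (0.31, adjusted p = 0.021), but at the mean of their probe sets they were at -0.45 and -0.45 (adjusted p = 0.20 for both). Tnks2 was also at 0.00092 after quantile and 0.020 after cyclic loess normalization, and Usp34, named next, at 0.15 and 0.13 (adjusted p = 0.14 and 0.18). Rnf146, the ligase that acts on axin after tankyrase, rose from 1986 ± 126 to 2731 ± 235 (SD, n = 3 pools each, log2 fold change 0.46, limma adjusted p = 0.0070), and Usp34, a deubiquitinase of axin, rose by 0.28 (adjusted p = 0.036). Tbl1xr1 and Trim33 fell by 0.29 and 0.25 (adjusted p = 0.036 and 0.047), and both turned positive, at 0.023 and 0.065, under median centring. Read as the mean of all probe sets, Rnf146 and Usp34 were at -0.22 and -1.07 (adjusted p = 0.34 and 0.0085). With the spike covariate Tnks, Tnks2, Rnf146 and Usp34 were at -0.16, 0.28, 0.20 and 0.084. Tbl1xr1 and Trim33 were at -0.20 and -0.38 in that fit, and none of these genes was called in it (limma adjusted p from 0.30 to 0.85).

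Among phosphatases and other kinases, 6 of 20 fell and 2 rose, at a median of -0.10 on the log2 scale. Ppp2cb, a catalytic subunit of protein phosphatase 2A, fell by 0.87, its regulatory subunit gene Ppp2r5a by 0.79 and the kinase gene Akt1 by 0.82 (adjusted p = 0.00072, 0.00073 and 0.00086). Csnk2a1, a catalytic subunit of casein kinase 2, rose by 0.55 and the phosphatase scaffold gene Ppp2r1a by 0.43 (adjusted p = 0.0062 and 0.020). Csnk2a1 was at 0.00073 at the mean of its probe sets (adjusted p = 0.996), and Ppp2r1a at 0.12 after quantile and 0.058 after cyclic loess normalization (adjusted p = 0.20 and 0.60). With the spike covariate Csnk2a1 and Ppp2r1a were at 0.20 and -0.040 (limma adjusted p = 0.68 and 0.93). Ppp2cb, Ppp2r5a and Akt1 were at -0.54, -0.71 and -0.47 in that fit (limma adjusted p = 0.14, 0.11 and 0.18). Of 11 junction partners 2 fell and 2 rose, with a median of -0.04. Ctnna1, for the alpha-catenin that ties beta-catenin to actin, rose by 0.42 and the endothelial cadherin gene Cdh5 by 0.72 (adjusted p = 0.021 and 0.027), whereas Ctnnd2, a delta-catenin gene, fell by 0.53 and Jup, for plakoglobin, by 0.47 (adjusted p = 0.013 and 0.041). Ctnna1 was at 0.091 after quantile normalization, 0.11 after cyclic loess and 0.0014 with the spike covariate (adjusted p = 0.36, 0.34 and 0.999). Ctnnd2 and Jup lost their calls under median centring, quantile and cyclic loess normalization (adjusted p from 0.086 to 0.42). Over all lists, 24 of the 29 regulators and targets named here were called, and 10 of these (Dvl1, Tnks2, Usp34, Tbl1xr1, Trim33, Ppp2r1a, Ctnna1, Cdh5, Ctnnd2 and Jup) lost the call when some single pool was left out.

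Of 33 tested target genes of beta-catenin with TCF/LEF, 11 fell and 2 rose, at a median of -0.22 on the log2 scale. After median centring 6 fell and 6 rose, and after quantile or cyclic loess normalization 11 fell and 4 rose. En2, a midbrain and hindbrain homeobox gene, had 535 ± 55.2 in control and 212 ± 20.1 in exposed pools (SD, n = 3 pools each), a log2 fold change of -1.33 (limma adjusted p = 0.00057). Jun, a subunit of AP-1, fell by 1.27 and the Notch ligand gene Dll1 by 0.90 (adjusted p = 0.00060 and 0.00071), while Id2, an inhibitor of basic helix-loop-helix factors, and Isl1, a homeobox gene of motor neurons and heart progenitors, rose by 0.58 and 0.50 (adjusted p = 0.0031 and 0.0085). At the mean of their probe sets Id2 was at -0.29 and Isl1 at 0.13 (adjusted p = 0.19 and 0.27). With the spike covariate En2, Jun and Dll1 were at -1.45, -0.78 and -0.72 (limma adjusted p = 0.063, 0.14 and 0.14). Id2 and Isl1 were at 0.23 and 0.12 in that fit (limma adjusted p = 0.51 and 0.80). Lef1, Ccnd1 and Myc, often used as readouts of the pathway, were not called (log2 fold changes -0.37, -0.05 and -0.02, adjusted p = 0.16, 0.65 and 0.91), although at the mean of their probe sets Lef1 was at -0.97 and Ccnd1 at -0.36 (adjusted p = 0.023 and 0.020). Lef1 was at -0.55 without exposed pool 2 (adjusted p = 0.023) and at 0.36 with the spike covariate (adjusted p = 0.62), and Ccnd1 at -0.27 after quantile and -0.26 after cyclic loess normalization (adjusted p = 0.0095 and 0.015). With the spike covariate 1 target was lower, the Wnt inhibitor gene Apcdd1 (log2 fold change -1.75, adjusted p = 0.015), and 0 were higher (limma, 9 lower and 0 higher at an unadjusted p under 0.05). Without the covariate Apcdd1 was at -0.72 (limma adjusted p = 0.025). Its exposed pools gave 1269.7, 677.6 and 1100.6, so that pool 2, with the lowest spike ratio of its group, was the lowest. The larger value with the covariate leans mostly on that 1 pool.

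**Figure D4:**
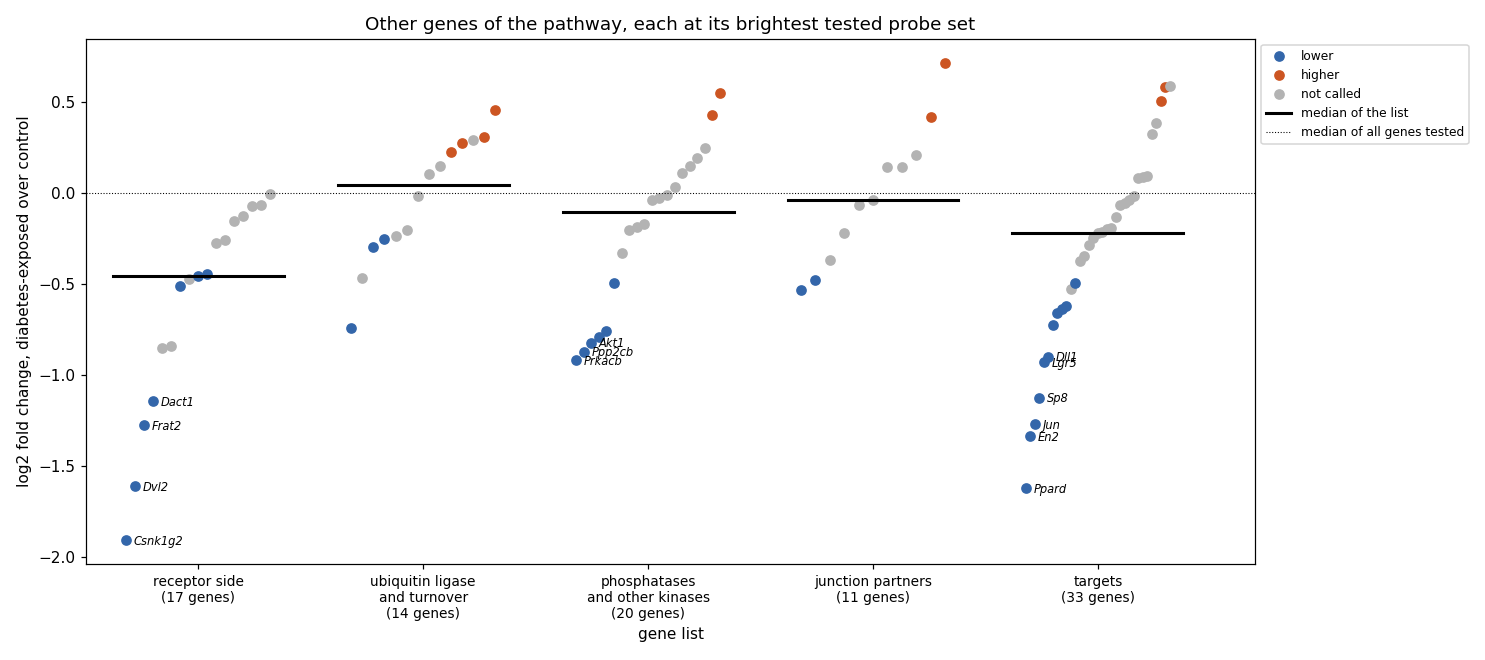
Log2 fold change (exposed over control, vertical axis) of each tested gene of 5 lists, ordered by value within its list, in blue where lower, orange where higher and grey where not called, with a thick line at the median of the list, a dotted line at the median of all genes tested and names at called genes beyond 0.8 in size. The receptor side has 7 blue points of 17 and no orange one, while the ubiquitin ligase and turnover list has 3 blue and 4 orange points.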

How the data were processed

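Total RNA of pooled FVB embryos was labelled with the Affymetrix one-cycle assay and read on 1 array per pool. The deposited values are intensities on a linear scale, made by the authors with GCOS and MAS5 from matched and mismatched probes and scaled to a common trimmed mean. No version of these tools is given in the sources used here. Medians per array were 74.1 to 103.3, and the number of arrays limits the precision.

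Log2 of the signals was tested with limma 3.58.1 in R 4.3.3 (lmFit, eBayes with a trend) after leaving out the 33.3% dimmest probe sets and 64 control probe sets, with Benjamini-Hochberg adjustment over 30025 probe sets and a threshold of 0.05. Pairs of probe sets of 1 gene were tested on their log2 ratio over 19082 pairs, without a trend. Gene names came from the platform table (34958 probe sets with 1 symbol). The spike ratio is the mean over 8 pairs of probe sets. The code was tested on simulated data. Figures used matplotlib 3.10.9 in Python 3.11.15.

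All members were named with every probe set. Of each other list, up to 3 genes that fell and 3 that rose with the smallest adjusted p were named, plus Lef1, Ccnd1, Myc, Dvl1, Dvl2, Lrp5 and Lrp6. Apcdd1 and the markers were named after their values were seen. Members and lists were chosen with earlier results of these data known. Alternatives were cyclic loess or quantile normalization, centring on the median, adding a pseudocount of 32, no filter, a 50% filter, eBayes without a trend, the spike covariate, a replicate block, a 2-fold minimum, Welch's test and a regularized test after Cyber-T (the study's methods), the mean of probe sets, and leaving out each pool.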

Additional observations from a re-analysis of the deposited data

How the results depend on the processing

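The count of 16 lower probe sets of the 10 genes lay between 15 and 18 under all settings tried except the 50% filter (12, of 28 tested), the spike covariate (0) and Welch's test (1, with 14 at an unadjusted p under 0.05). The single higher one became 5 with median centring, 3 without exposed pool 2, and 0 with cyclic loess, without a trend, with the spike covariate, at 2-fold or with Welch's test (limma and Welch's test gave 0, 1, 2, 0 and 2 at an unadjusted p under 0.05). Leaving out 1 pool at a time gave 15 to 17 lower and 0 to 3 higher, 0 to 21 pairs that differed, 12 to 19 regulators lower and 2 to 10 higher, and 8 to 11 targets lower and 2 to 3 higher. Over all 30025 tested probe sets the lower count was 6550, but 4003 with median centring, 5254 with quantile and 5966 with cyclic loess normalization. It was 4375 to 7367 with 1 pool left out. A steady count of members is therefore not a steady excess over the array.

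Pairs that differed numbered 12 (20.6% of the pairs of all genes were called), but 4 with no filter (2.18% of all), 0 with the spike covariate (0 of all) and 20 with a variance trend on the dimmer probe set, a setting chosen after the data were seen. Regulators were 8 lower and 17 higher with median centring, 3 higher with quantile or cyclic loess normalization, 2 higher without a trend, 2 lower and 0 higher with the spike covariate, 4 lower and 0 higher at 2-fold, 1 lower and 0 higher with Welch's test, and 30 lower and 4 higher at the mean of probe sets. Targets were 6 lower and 6 higher with median centring, 4 higher with quantile or cyclic loess, 1 lower and 0 higher with the spike covariate, 4 lower and 0 higher at 2-fold, 2 lower and 0 higher with Welch's test, and 17 lower and 0 higher at the mean of probe sets. At an unadjusted p under 0.05 these counts of 0 were 3 and 0 (regulators and targets, spike covariate), 0 and 0 (2-fold), 6 and 4 (Welch's test) and 0 (targets, mean of probe sets). The cause of these changes was not tested, beyond the fewer arrays or the fold minimum that a setting itself brings. Reading genes at the mean of probe sets moved the median of all genes from -0.00025 to -0.11. Of all 30025 tested probe sets, 3299 were lower at 2-fold and 333 with Welch's test. Shares of all genes called were counted only for the main fit and the spike covariate. Under the other settings the counts of the lists therefore cannot be told apart from a shift of the whole array.

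Where a value was called under either setting, the sign turned for Ctnnb1 1420811_a_at with quantile (-0.16) and cyclic loess normalization (-0.28), for Ctnnb1 1450008_a_at (0.28), Csnk1e 1435373_at (0.51) and Ppp2r1a (-0.040) with the spike covariate, for Trim33 (0.065) and Tbl1xr1 (0.023) with median centring, and for Tnks2 (-0.45), Rnf146 (-0.22), Usp34 (-1.07) and Id2 (-0.29) at the mean of probe sets. Replicate numbers did not pair the pools (correlations of deviations 4.9e-05, 0.076 and 0.12). With the replicate block 16 probe sets were lower and 1 higher, 8 pairs differed, 17 regulators were lower and 7 higher, and 11 targets lower and 2 higher.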
